A study of Mus musculus with 6 samples.

Results

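The 10 genes described here were listed together as matricellular and provisional matrix genes: Postn, Tnc, Thbs1, Thbs2, Thbs3, Thbs4, Sparc, Fn1, Vcan and Fbn1. They were chosen by name, with earlier results of these data known. All 10 were found among the 18089 genes of the expression table once the transcripts of each Entrez gene had been summed. Matricellular proteins are secreted into the extracellular matrix but do little to bear load themselves. They bind cell surface receptors, growth factors and structural fibres, are scarce in most resting adult tissue and appear where tissue is injured and rebuilt. Fibronectin and versican belong to the provisional matrix that fills a wound before collagen replaces it, and in injured skeletal muscle this matrix surrounds the satellite cells and new fibres.

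RNA was sequenced from the ischemic gastrocnemius, the main calf muscle, of male C57BL/6 mice aged 8 to 10 weeks, taken 7 days after hindlimb ischemia (HLI), a surgical block of the limb's arterial supply. The study asked what lies downstream of GPR174, a lysophosphatidylserine receptor encoded on the X chromosome, in the ischemic limb. Wild-type (WT) muscle gave 3 libraries and muscle of Gpr174-/Y mice, which lack the receptor in every cell of the body, gave the other 3. Both groups had undergone HLI, and no uninjured muscle was analysed here, so every difference below is between genotypes within ischemic muscle.

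Each library held 18417107 to 19394505 estimated counts. Gpr174 itself had 8, 2 and 5 counts in the WT libraries and 1, 0 and 0 in the Gpr174-/Y libraries, too few to pass the filter on low counts, and without that filter its log2 fold change was -3.76 (SE 0.99, adjusted p = 0.0176). Skeletal muscle genes were abundant in every library, the 16 mature fibre markers taking 11.9% to 16.1% of the counts in WT and 6.39% to 6.74% in Gpr174-/Y muscle. In both groups replicate 2 lay between replicates 1 and 3 for most abundant genes, namely for 79.8% of 7650 genes in WT and 70.9% in Gpr174-/Y muscle, and for all 10 genes described here in each group. No adjusted p passed 0.05 for any gene when replicate 2 of both groups was left out, although 5026 of 14447 genes had an unadjusted p under 0.05 in that edgeR fit.

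Together the 10 genes took 0.608%, 0.81% and 1.11% of all counts in the WT libraries and 1.89%, 1.92% and 1.96% in the Gpr174-/Y libraries. The groups did not overlap. Of the 10 genes, 9 rose in Gpr174-/Y muscle at an adjusted p under 0.05 (edgeR quasi-likelihood test, Benjamini-Hochberg adjustment over 14395 genes), none fell and Thbs3 did not pass. Among all genes tested, 54.6% differed by the same test, 27% being higher and 27.6% lower. For the same 9 genes every Gpr174-/Y library lay above every WT library, which held for 33.1% of all genes. The rise exceeded 2-fold for 4 of the 10 genes, Tnc, Thbs2, Thbs1 and Postn, against 3.45% of all genes. The median log2 fold change of the 10 genes was 0.96, and that of all genes was 0.00. Since the 10 genes were chosen with earlier results of these data known, these contrasts with all genes are descriptive only. With replicates 1 and 3 only, 0 of the 10 passed an adjusted p of 0.05 and 7 had an unadjusted p under 0.05. Fewer cells of a type and less RNA per cell cannot be told apart in RNA from whole muscle.

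**Figure D1:**
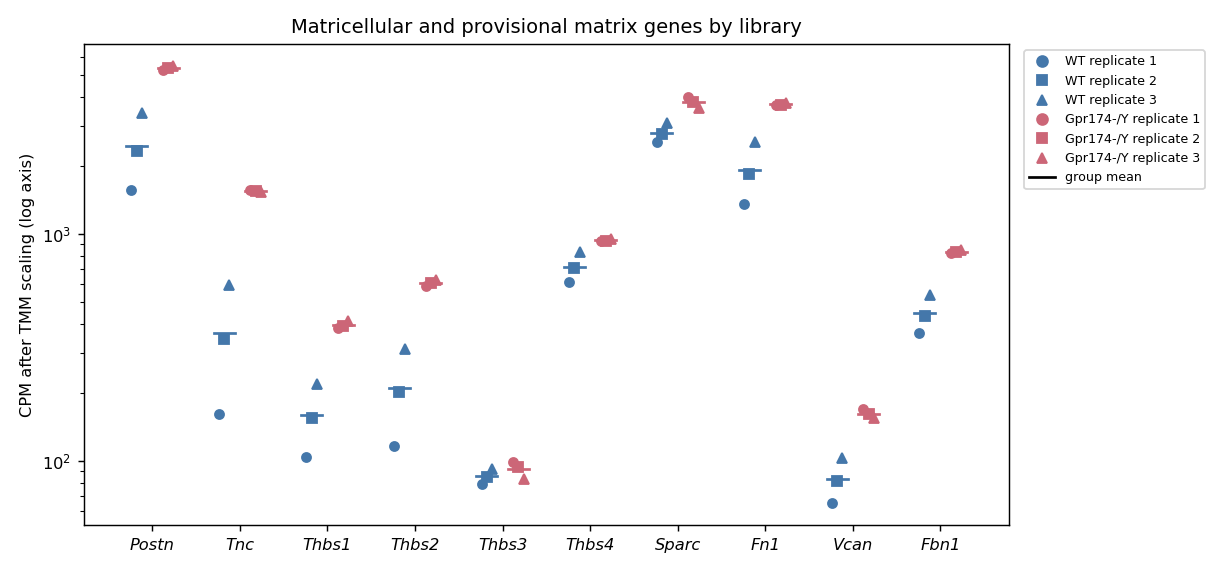
CPM (counts scaled to library size with TMM, a correction for differences in RNA composition, log axis) of the 10 genes in each of the 6 libraries, with WT in blue, Gpr174-/Y in red, a marker shape for each replicate number and a bar at each group mean. For 9 genes every Gpr174-/Y library lies above every WT library, and Thbs3 is the gene whose groups overlap.

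The WT libraries were spread much more widely than the Gpr174-/Y libraries. The plot of CPM by library shows that WT replicate 1 was the lowest WT library and WT replicate 3 the highest for all 10 genes. The coefficient of variation of the 10 genes ran from 7.37% to 59.4% in WT and from 0.984% to 8.2% in Gpr174-/Y muscle, and it was larger in WT for 9 of the 10. Over the 7650 abundant genes the median coefficient of variation was 6.79% in WT and 3.65% in Gpr174-/Y muscle. Tnc spanned a 3.7-fold range among the WT libraries, Thbs2 a 2.67-fold range and Postn a 2.18-fold range, while the same genes spanned 1.02-fold, 1.06-fold and 1.04-fold among the Gpr174-/Y libraries.

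Tenascin C, encoded by Tnc (gene ID 21923; chromosome 4, 63959785 to 64047015, GRCm38), is a six-armed glycoprotein that loosens cell adhesion to fibronectin and is induced in injured muscle and tendon. It showed the largest difference of the 10 genes. Its CPM was 160.3, 343.7 and 593.3 in the WT libraries and 1562.6, 1548.3 and 1524.9 in the Gpr174-/Y libraries. The lowest Gpr174-/Y library was 2.57-fold above the highest WT library. Its log2 fold change, Gpr174-/Y against WT, was 2.08 (standard error, SE, 0.42, adjusted p = 0.00657), a 4.22-fold rise that ranked 44 of 14395 genes by log2 fold change. Leaving out WT replicate 3 gave a log2 fold change of 2.62 and leaving out WT replicate 1 gave 1.73.

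The promoter window of Tnc is printed because Tnc rose most and because EGR1, the transcription factor that the study examined, binds GC-rich letters of the kind found there. The window covers 250 bases before to 50 bases after the RefSeq start site (chr4:64046966-64047265, minus strand, GRCm38.p6). Capitals mark GCGGGGGCG, 171 bases before the start, and TATAAA, 126 bases before it.
Tnc promoter: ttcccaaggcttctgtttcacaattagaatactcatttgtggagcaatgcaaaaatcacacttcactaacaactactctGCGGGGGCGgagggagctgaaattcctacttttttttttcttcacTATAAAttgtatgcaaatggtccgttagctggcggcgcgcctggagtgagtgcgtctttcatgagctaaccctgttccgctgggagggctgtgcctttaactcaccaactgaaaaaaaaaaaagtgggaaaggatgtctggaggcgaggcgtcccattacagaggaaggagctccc
The RefSeq table held windows for 8 of the 10 genes, among them Postn and Tnc with 2 start sites each. Searched on both strands, GCGGGGGCG was found in the windows of Tnc alone among these 8 genes, both of which hold the same stretch, and in 2.91% of the 32851 windows of all genes. TATAAA was found in 1 window each of Postn and Thbs2 and in both of Tnc, against 13.6% of all windows. GGAATG, the core letters bound by TEAD factors, was found in Thbs4 alone, against 14.7% of all windows. The letters GCGTGGGCG (0.612% of all windows), TGACTCA (5.2%) and the CArG box (1.63%) were in no window of the 8 genes. These matches describe the letters of the windows, and binding was not measured.

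Periostin, encoded by Postn (gene ID 50706; chromosome 3, 54359267 to 54391041), binds integrins and collagen and is made by fibroblasts of healing tissue. Postn stood at 1560.0, 2331.3 and 3406.8 CPM in WT and at 5289.9, 5380.2 and 5511.0 CPM in Gpr174-/Y muscle. The Gpr174-/Y libraries were all higher, by 1.55-fold at the nearest pair. The log2 fold change was 1.15 (SE 0.27, adjusted p = 0.0105). It ranged from 0.92 to 1.5 over all alternative analyses of this gene.

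Postn transcripts differ in short cassette exons that encode part of the C-terminal region of the protein. Among the transcripts in the table these were an 81-base exon, exon 17 of 22 of its transcript (chr3:54380412-54380492, plus strand, GRCm38), and an 84-base exon, exon 20 of 22 of a transcript that lacks the former (chr3:54385671-54385754, plus strand, GRCm38). They are shown because the share of periostin messages that hold them did not overlap between the groups. Capitals mark the cassette exon, and lower case marks the 12 transcript bases on each side of it.
Postn 81-base exon: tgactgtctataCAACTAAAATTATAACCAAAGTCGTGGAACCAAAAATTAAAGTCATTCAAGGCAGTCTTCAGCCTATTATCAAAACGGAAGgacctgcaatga
Postn 84-base exon: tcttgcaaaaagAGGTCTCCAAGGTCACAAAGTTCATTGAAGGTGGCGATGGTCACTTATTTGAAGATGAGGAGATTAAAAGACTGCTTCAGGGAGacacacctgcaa
Both lengths are multiples of 3. No transcript of Postn with a matched exon structure carried both exons.

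The form of Postn with neither exon made up 32.4%, 32.6% and 33.2% of the gene's summed FPKM (fragments scaled by transcript length and library size) in the WT libraries and 51.5%, 50.7% and 49.4% in the Gpr174-/Y libraries. This form was the most common of the 3 in every Gpr174-/Y library, whereas in every WT library the form with the 81-base exon was. The difference was 17.8 percentage points (two-sided exact permutation p = 0.1, the smallest that 3 libraries against 3 allow). Of all transcripts from genes with more than 1 expressed transcript, 23.1% had shares that did not overlap between groups. For 10.2% the gap was also 10 percentage points or more. The 81-base exon was held by 38.9%, 38.2% and 37.0% of Postn in WT and by 25.8%, 26.5% and 26.1% in Gpr174-/Y muscle. For the 84-base exon the shares were 28.7%, 29.1% and 29.8% in WT against 22.6%, 22.8% and 24.5%. These shares were close together within each group, with SDs of 0.412 points in WT and 1.05 points in Gpr174-/Y muscle for the form with neither exon. The gene's level in CPM was widely spread in WT only, with a coefficient of variation of 38.1% against 2.06% in Gpr174-/Y muscle. Of the 2 transcripts without either exon, the main one, NM_001198766.1, rose (log2 fold change 1.81, SE 0.31, adjusted p = 0.0261 over 35524 transcripts). The main transcript with the 81-base exon (0.66, SE 0.27, adjusted p = 0.214) and the one with the 84-base exon (0.86, SE 0.31, adjusted p = 0.16) were at higher levels in every Gpr174-/Y library but did not pass. The minor transcripts without either exon (1.53, SE 0.51, adjusted p = 0.132) and with the 81-base exon (0.32, SE 0.47, adjusted p = 0.773) did not pass either, and the groups of the latter overlapped. In edgeR's diffSpliceDGE test of usage within the gene, the main transcript without either exon did not pass (usage log2 difference 0.44, adjusted p = 0.623 over 29665 transcripts, of which 2.83% passed). The split rests on the estimation of reads shared by transcripts whose effective lengths were 3081, 3162 and 3165 bases, and the error of that estimate is not in the tests.

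Thrombospondins 1 and 2 form trimers that bind CD36 and CD47, restrain the growth of new vessels, and in the case of thrombospondin 1 activate latent TGF-beta. Thbs1 (gene ID 21825; chromosome 2, 118111876 to 118127133) had 103.7, 154.5 and 218.3 CPM in WT and 385.1, 394.0 and 415.7 CPM in Gpr174-/Y muscle. It rose with a log2 fold change of 1.33 (SE 0.24, adjusted p = 0.00454). Thbs2 (gene ID 21826; chromosome 17, 14665500 to 14694262) had 116.8, 201.4 and 312.3 CPM in WT and 591.8, 611.2 and 627.4 CPM in Gpr174-/Y muscle. Its log2 fold change was 1.54 (SE 0.32, adjusted p = 0.00691). Neither gene's groups overlapped, the nearest libraries standing 1.76-fold and 1.90-fold apart.

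Thrombospondins 3 and 4 form pentamers, and thrombospondin 4 is abundant in muscle and tendon, where it takes part in the attachment of fibres to their matrix. Thbs4 (gene ID 21828; chromosome 13, 92751586 to 92794818) had 612.7, 707.0 and 831.6 CPM in WT and 929.4, 934.6 and 947.3 CPM in Gpr174-/Y muscle. It rose by a smaller log2 fold change of 0.39 (SE 0.12, adjusted p = 0.0286). That call was lost, at adjusted p values of 0.0751 to 0.0932, when WT replicate 2 or any one of the Gpr174-/Y libraries was left out. Thbs3 (gene ID 21827; chromosome 3, 89215180 to 89226841) had 79.3, 85.2 and 91.9 CPM in WT and 98.4, 93.7 and 83.6 CPM in Gpr174-/Y muscle. Its groups overlapped, and its log2 fold change of 0.10 (SE 0.08, adjusted p = 0.316) did not pass. Scaled by total counts alone, which moved the median of all genes by 0.27, Thbs3 was higher in Gpr174-/Y muscle by 0.37 on the log2 scale with an adjusted p of 0.0127.

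Compared per length, Thbs4 was the main thrombospondin message in every library, but by less in Gpr174-/Y muscle. The summed FPKM of the 4 genes was 225, 282 and 365 in the WT libraries and 533, 547 and 567 in the Gpr174-/Y libraries. Thbs4 held 75.4%, 71.8% and 68.7% of that sum in WT and 59.7%, 59.5% and 59.4% in Gpr174-/Y muscle, 12.5 percentage points less (two-sided exact permutation p = 0.1). The share of Thbs2 was 7.72%, 11% and 13.8% in WT against 20.4%, 20.9% and 21.1%, and that of Thbs1 was 6.94%, 8.53% and 9.81% against 13.5%, 13.6% and 14.2%. Thbs3 went from 9.9%, 8.7% and 7.64% to 6.41%, 6.03% and 5.34%. None of the 4 shares overlapped between groups, and these shares do not depend on the scaling between libraries. They add up to the whole pool, so they are not separate results. A lower share is not a lower level, since Thbs4 rose in CPM. How often such shares separate in other gene families was not computed.

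**Figure D2:**
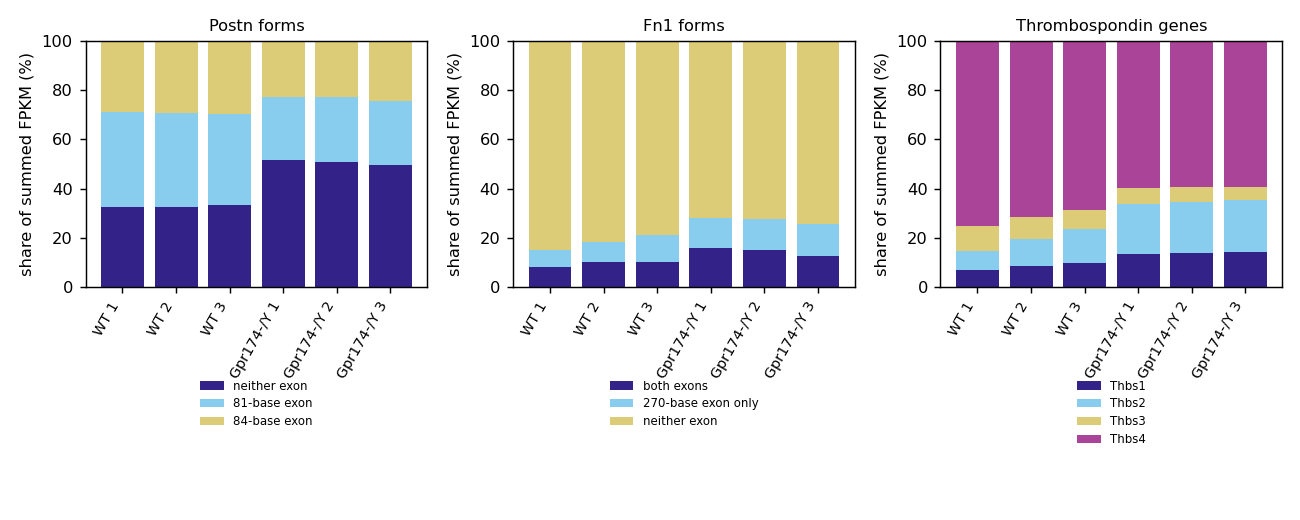
Composition of Postn messages by cassette exon, of Fn1 messages by extra domain exon and of the thrombospondin genes, each bar being 1 library and adding to 100% of the summed FPKM (of matched transcripts for Postn and Fn1). In Gpr174-/Y libraries the Postn form with neither exon, the Fn1 forms with the 270-base exon and Thbs1 with Thbs2 take larger shares than in any WT library.

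SPARC, also called osteonectin, binds collagen and guides its assembly into fibrils. Sparc (gene ID 20692; chromosome 11, 55394159 to 55420080) had 2548.0, 2771.5 and 3079.1 CPM in WT and 3998.7, 3831.4 and 3577.4 CPM in Gpr174-/Y muscle. The groups stood 1.16-fold apart at the nearest libraries. Its log2 fold change was 0.44 (SE 0.11, adjusted p = 0.0143). The call was lost without WT replicate 2 (adjusted p = 0.0621), without Gpr174-/Y replicate 1 (0.0579) and without Gpr174-/Y replicate 2 (0.0628). Its 2 transcripts kept to the same split, the major one at 90.9% ± 0.185 (SD, n = 3) of Sparc FPKM in WT and 90.3% ± 0.402 (SD, n = 3) in Gpr174-/Y muscle, and the groups overlapped.

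Fibronectin, encoded by Fn1 (gene ID 14268; chromosome 1, 71585473 to 71653280), is the adhesive glycoprotein of the provisional matrix and the ligand of integrin alpha 5 beta 1. Fn1 stood at 1358.7, 1843.8 and 2532.4 CPM in WT and at 3688.5, 3720.4 and 3772.8 CPM in Gpr174-/Y muscle. Every Gpr174-/Y library was higher, by 1.46-fold at the nearest pair. The log2 fold change was 0.96 (SE 0.22, adjusted p = 0.00939), just under 2-fold, and it was 1.22 when libraries were scaled by total counts.

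Cellular fibronectin, the form that cells lay down in a wound, is marked by extra domains A and B, each encoded by a single cassette exon that the plasma form lacks. The exon of extra domain A is 270 bases long and was exon 33 of 46 of its transcript (chr1:71603660-71603929, minus strand, GRCm38), and that of extra domain B is 273 bases long and was exon 25 of 46 (chr1:71613763-71614035, minus strand, GRCm38). They are shown as the stretches that tell the forms of Fn1 apart, with the exon in capitals and 12 transcript bases on each side in lower case.
Fn1 270-base exon: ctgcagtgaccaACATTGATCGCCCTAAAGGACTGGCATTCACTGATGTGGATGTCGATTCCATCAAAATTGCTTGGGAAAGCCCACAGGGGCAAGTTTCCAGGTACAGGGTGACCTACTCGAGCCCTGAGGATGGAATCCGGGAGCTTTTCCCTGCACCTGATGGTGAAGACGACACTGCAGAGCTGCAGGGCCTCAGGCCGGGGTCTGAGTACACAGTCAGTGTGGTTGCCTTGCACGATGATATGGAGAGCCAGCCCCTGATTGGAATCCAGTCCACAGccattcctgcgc
Fn1 273-base exon: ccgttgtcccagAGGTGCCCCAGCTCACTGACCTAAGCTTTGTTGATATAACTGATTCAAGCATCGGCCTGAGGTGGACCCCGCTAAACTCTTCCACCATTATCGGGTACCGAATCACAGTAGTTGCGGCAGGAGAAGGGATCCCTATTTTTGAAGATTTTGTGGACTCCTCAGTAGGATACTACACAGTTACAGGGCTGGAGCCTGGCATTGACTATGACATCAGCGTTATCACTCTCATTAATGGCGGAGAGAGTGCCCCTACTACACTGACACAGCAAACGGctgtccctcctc
Among the matched transcripts the 273-base exon occurred only together with the 270-base exon. Both lengths are again multiples of 3.

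Forms with the 270-base exon made up 15.1%, 18.3% and 21% of the summed FPKM of the matched Fn1 transcripts in the WT libraries and 28.0%, 27.6% and 25.5% in the Gpr174-/Y libraries, 8.86 percentage points more (two-sided exact permutation p = 0.1). Forms with the 273-base exon as well made up 7.92%, 10.1% and 10.1% in WT and 15.6%, 14.8% and 12.6% in Gpr174-/Y muscle, 4.93 points more (exact permutation p = 0.1). The groups did not overlap for either exon, and fibronectin without either exon was the main form in every library. Shares of single transcripts did not overlap between groups for 23.1% of all transcripts from genes with more than 1 expressed transcript. The transcripts that could be matched to an annotated exon structure covered 94.5% to 99.3% of Fn1 FPKM. The transcript with both exons rose (log2 fold change 1.60, SE 0.32, adjusted p = 0.0375), and so did the main transcript with neither (0.90, SE 0.20, adjusted p = 0.0487). The main transcript with the 270-base exon alone did not pass (1.53, SE 0.38, adjusted p = 0.065), though its groups did not overlap. In the diffSpliceDGE test neither exon-bearing transcript passed, the one with both exons having an adjusted p of 0.848. In the test of usage within genes, 1 transcript of the 10 genes passed, the Fn1 transcript XM_006495699.4 (usage log2 difference -1.07, adjusted p = 0.0163), which is named after its value was seen. It held 3.16% ± 1.56 (SD, n = 3) of Fn1 in WT and 1.18% ± 0.90 (SD, n = 3) in Gpr174-/Y muscle, and the groups overlapped. This transcript was not among the matched ones, so it is outside the exon shares. Its effective length of 8103 bases was that of the main transcript with the 270-base exon alone, and its own exons were not determined.

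Versican, encoded by Vcan (gene ID 13003; chromosome 13, 89655309 to 89743027), is a large chondroitin sulfate proteoglycan that binds hyaluronan. Its CPM of 65.2, 81.7 and 102.5 in WT and 170.0, 160.3 and 154.9 in Gpr174-/Y muscle did not overlap. It rose with a log2 fold change of 0.96 (SE 0.15, adjusted p = 0.00279). A transcript of 8474 bases effective length, XM_011244471.3, held 61.4% ± 0.866 (SD, n = 3) of Vcan FPKM in WT and 70.4% ± 1.72 (SD, n = 3) in Gpr174-/Y muscle. The shorter transcript NM_001134475.1, of 4289 bases, held 34.1% ± 1.33 (SD, n = 3) and 21.4% ± 4.26 (SD, n = 3). For both shares the two-sided exact permutation p was 0.1. A minor transcript, NM_019389.2, held 8.33% in Gpr174-/Y replicate 3 but 0.487% and 0.891% in replicates 1 and 2. The longer transcript rose (log2 fold change 1.08, SE 0.18, adjusted p = 0.0262) and the shorter one did not pass (0.21, SE 0.29, adjusted p = 0.749). In the diffSpliceDGE test of usage neither of these passed (usage log2 difference 0.07 and -0.53), so a shift between them was not called.

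Fibrillin 1, encoded by Fbn1 (gene ID 14118; chromosome 2, 125300594 to 125506485), forms the microfibrils that carry elastin and store latent TGF-beta. Fbn1 stood at 364.4, 436.7 and 539.0 CPM in WT and at 826.8, 833.2 and 846.1 CPM in Gpr174-/Y muscle. The nearest libraries of the groups were 1.53-fold apart. The log2 fold change was 0.90 (SE 0.14, adjusted p = 0.00254), the lowest adjusted p among the 10 genes.

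**Figure D3:**
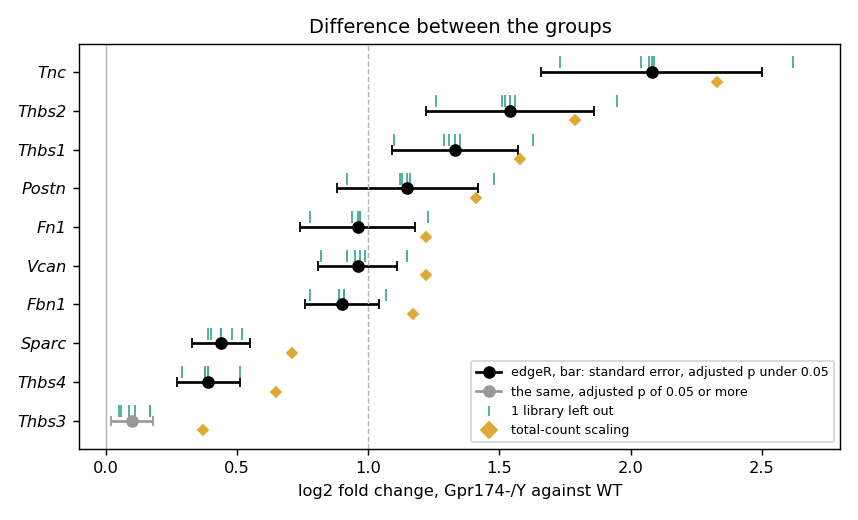
Log2 fold change of each gene (Gpr174-/Y against WT), with points and bars for the edgeR estimate and its standard error, ticks for the fits with 1 library left out, diamonds for total-count scaling and a dashed line at 2-fold. Estimates run from 0.10 for Thbs3 to 2.08 for Tnc and stay above 0 in every fit drawn.

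Per length, the order of the 10 genes was largely shared by the groups but their spacing was not. In WT the mean FPKM was 1238.0 ± 173.3 (SD, n = 3) for Sparc and 713.5 ± 302.3 for Postn, and in Gpr174-/Y muscle it was 2021.6 ± 76.5 for Sparc and 1899.8 ± 75.4 for Postn. The ranges of these most abundant genes did not overlap in WT and did overlap in Gpr174-/Y muscle, where Postn exceeded Sparc in 1 of 3 libraries. Fn1 followed at 221.8 ± 77.6 FPKM in WT, level with Thbs4 at 207.8 ± 41.0 within their spread, whereas in Gpr174-/Y muscle Fn1 at 515.9 ± 16.2 lay above Thbs4 at 326.7 ± 9.51. Tnc (54.4 ± 34), Fbn1 (41.7 ± 10.1), Thbs2 (33 ± 16.7), Thbs1 (25.2 ± 10.2) and Thbs3 (24.9 ± 2.85) had ranges that overlapped from each gene to the next in WT. Within single WT libraries, however, Fbn1 exceeded Thbs2 and Thbs2 exceeded Thbs1 in 3 of 3. Tnc exceeded Fbn1 in 2 of 3 and Thbs1 exceeded Thbs3 in 1 of 3. In Gpr174-/Y muscle the ranges of the same genes were separated, at 268.7 ± 1.08 for Tnc, 114.2 ± 5.54 for Thbs2, 93.8 ± 2.92 for Fbn1, 75.5 ± 4.44 for Thbs1 and 32.5 ± 1.96 FPKM for Thbs3. Vcan was the lowest in both groups, at 10.9 ± 2.97 and 23.5 ± 1.15 FPKM.

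Of 37 transcripts of the 10 genes that passed the filter on low counts, 11 rose at an adjusted p under 0.05 and 0 fell, and 23 had an unadjusted p under 0.05. They came from 7 of the 10 genes. Of all 35524 transcripts tested, 6.01% rose. When WT replicate 2 or any one of the Gpr174-/Y libraries was left out, 0 transcripts passed in edgeR and 18 to 20 had an unadjusted p under 0.05, while 18 passed without WT replicate 3. Shares of the gene's FPKM were taken for the 36 transcripts of the 8 genes with more than 1 expressed transcript. The share did not overlap between groups for 18, which is 50% against 23.1% of all such transcripts. Of these, 8 were higher and 10 lower in Gpr174-/Y muscle. The shares of a gene add up to the whole gene, so they are not separate results, and several of the 18 belong to minor transcripts. The comparison with all such transcripts was not matched for abundance. A gap of 10 percentage points or more without overlap occurred for 4 of the 36, or 11.1%, close to the 10.2% of all such transcripts. These 4 were the main Postn transcripts with the 81-base exon and with neither exon, the main Thbs3 transcript at 72.0% ± 2.82 (SD, n = 3) in WT and 59.9% ± 4.93 (SD, n = 3) in Gpr174-/Y muscle, and the shorter Vcan transcript. For Tnc, a transcript of 7243 bases effective length held 6.64% ± 0.831 (SD, n = 3) and 11.4% ± 2.07 (SD, n = 3) of the gene, and one of 5604 bases 16.0% ± 4.96 and 8.31% ± 1.40. The transcripts of Thbs1 differ by 4 bases in effective length and those of Fbn1 by 75, so their split is uncertain, and the groups overlapped.

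Genes around these 10 moved in both directions. Related genes were described as 4 lists by their counts, with no test of a list. These lists too were chosen with earlier results of these data known. Of their 71 tested genes, 35 rose and 17 fell. Of 24 other matricellular genes tested, 10 rose, 6 fell and 8 did not pass, with a median log2 fold change of 0.39. Spp1, which encodes osteopontin, a matrix glycoprotein and cytokine, had 38.4, 80.8 and 142.3 CPM in WT and 505.7, 489.0 and 456.1 CPM in Gpr174-/Y muscle (log2 fold change 2.47, SE 0.42, adjusted p = 0.00355). Ccn4, a CCN family protein induced by Wnt signalling, rose by 1.84 on the log2 scale (SE 0.29, adjusted p = 0.00262). The opposite held for Tnxb, the tenascin that spaces collagen fibrils in resting connective tissue, at 305.7, 260.7 and 208.1 CPM in WT and 73.5, 79.6 and 90.7 CPM in Gpr174-/Y muscle (log2 fold change -1.67, SE 0.15, adjusted p = 0.000767). Fbln7, a fibulin, fell by 1.32 on the log2 scale (SE 0.20, adjusted p = 0.00223). Tnc and Tnxb thus differed in opposite directions, and both did so without overlap of the groups.

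The microfibril and elastic fibre list includes genes whose proteins assemble with fibrillin 1. Of its 16 genes, 10 rose, 3 fell and 3 did not pass, with a median of 0.33. Ltbp2 (1.90, SE 0.40, adjusted p = 0.00726), a fibrillin-binding protein of the latent TGF-beta binding family, and Fbn2 (1.43, SE 0.24, adjusted p = 0.00319), the fibrillin of developing tissue, rose most on the log2 scale. Ltbp4 (-0.86, SE 0.07, adjusted p = 0.00062) and Adamtsl4 (-0.85, SE 0.12, adjusted p = 0.00181) fell most. The hyaluronan and proteoglycan list includes partners and proteases of versican. Of its 14 genes tested, 5 rose, 5 fell and 4 did not pass, with a median of 0.48. Has2, a hyaluronan synthase, had 4.29, 4.64 and 5.39 CPM in WT and 14.4, 13.5 and 11.3 CPM in Gpr174-/Y muscle (log2 fold change 1.45, SE 0.13, adjusted p = 0.000778), and Cd44, the hyaluronan receptor, rose by 1.12 (SE 0.16, adjusted p = 0.00187). Has3, another synthase, fell by 1.41 (SE 0.25, adjusted p = 0.00395), and Adamts20, a versican-cleaving protease, fell by 0.89 (SE 0.15, adjusted p = 0.00317).

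Of 17 receptor genes tested, 10 rose, 3 fell and 4 did not pass, with a median of 0.38 and none past 2-fold. Sdc1, a heparan sulfate coreceptor for fibronectin and thrombospondin, rose by 0.91 on the log2 scale (SE 0.16, adjusted p = 0.0042), and Stab1, a scavenger receptor that takes up SPARC, rose by 0.87 (SE 0.07, adjusted p = 0.000557). Itgb6 fell by 0.45 (SE 0.11, adjusted p = 0.0122) and Itga8 fell by 0.39 (SE 0.12, adjusted p = 0.0268), and both calls were lost with total-count scaling, at adjusted p values of 0.106 and 0.388. With that scaling 12 receptor genes rose and 0 fell.

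Markers of several cell types differed between the same libraries. All 10 macrophage markers rose, with a median log2 fold change of 0.80, and their summed CPM was 790.7 to 1333.2 in WT and 1794.9 to 1931.1 in Gpr174-/Y muscle. C1qb had 188.9, 246.9 and 327.6 CPM in WT and 398.6, 409.8 and 431.7 CPM in Gpr174-/Y muscle, with WT replicate 1 lowest as for the 10 genes, and C1qa rose by 0.69 on the log2 scale (SE 0.23, adjusted p = 0.0369). Of 11 markers of fibroblasts and fibro-adipogenic progenitors (FAPs), the matrix-forming cells of muscle, 2 rose, 4 fell and 5 did not pass. Their summed CPM was 935.1 to 1009.8 in WT and 718.8 to 787.6 in Gpr174-/Y muscle, and Cd34 (mean 272 against 131.9 CPM) and Pi16 (96.1 against 44.4 CPM, named after its values were seen) carried most of that gap. Cd34 fell by 1.04 (SE 0.07, adjusted p = 0.000477), and Dpt, which encodes dermatopontin of the fibroblast matrix, had a log2 fold change of 0.02 (SE 0.09, adjusted p = 0.869). The median of the FAP list was -0.16, and it was 0.12 with total-count scaling. No tested marker of the macrophage or FAP list was at 0 on average in either group.

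Of 6 tenocyte markers 1 rose and 5 fell (median -0.69), and of 16 mature fibre markers 15 fell and 1 did not pass (median -1.44). Of 10 regenerating fibre markers 7 rose and 3 did not pass (median 1.15), and all 10 endothelial markers fell (median -0.80). Of 10 smooth muscle and pericyte markers 4 rose and 4 fell, among them Acta2, also the actin of myofibroblasts, with 224.9, 268.5 and 330.7 CPM in WT and 685.7, 639.3 and 569.4 CPM in Gpr174-/Y muscle, and Des, the muscle intermediate filament gene, with 5512.9, 5891.4 and 6381.6 CPM in WT and 3848.7, 3634.7 and 3336.1 CPM in Gpr174-/Y muscle. Platelets, which store thrombospondin 1, left few counts, so that 4 of 8 markers were tested, of which 1 rose and 1 fell. Pf4 had 9.96, 12.1 and 18.2 CPM in WT and 36.8, 35.5 and 33.2 CPM in Gpr174-/Y muscle, and Gp1ba had 6.66, 5.89 and 4.5 CPM in WT and 2.68, 2.83 and 4.42 CPM in Gpr174-/Y muscle. Of 6 Schwann cell markers 1 fell and 5 did not pass. The part of these cell types in the levels of the 10 genes was not tested.

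**Figure D4:**
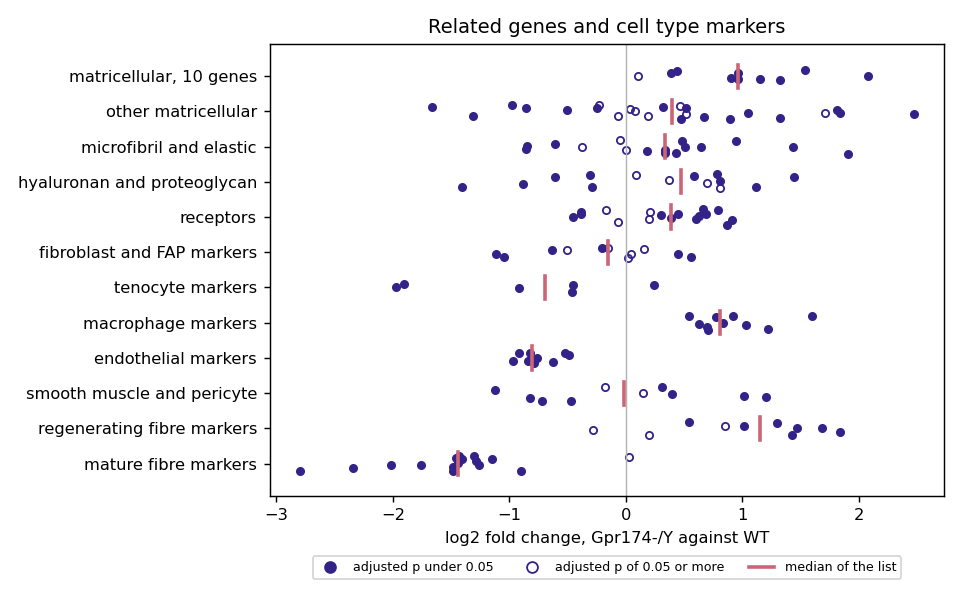
Log2 fold changes (Gpr174-/Y against WT) of the tested genes of each list, filled where the adjusted p was under 0.05, with a red bar at the median of the list. The 10 genes described here (labelled matricellular) and the macrophage markers lie at or above 0.10. The other matrix lists spread to both sides of 0, and the endothelial markers lie below 0.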

How the data were processed

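Total RNA of ischemic gastrocnemius was sequenced on the BGISEQ-500 platform, per the methods, from a TruSeq library per the labels. The authors deposited 1 table of RefSeq transcripts by library with estimated counts and with FPKM and TPM values, FPKM being estimated counts scaled by effective transcript length and library size. TPM entered only as an alternative for the shares. The submitters' processing notes name HISAT2 2.0.4, Bowtie2 2.2.5, RSEM 1.2.12 and the build GRCm39. The table has 1 column per library for each unit, and whether material was pooled before sequencing is not given in the sources used here. The study tested genes with DEGseq. Here estimated counts were summed per Entrez gene (18037 of 18089, or 99.7%, matched a symbol), rounded, filtered by filterByExpr, scaled by TMM and tested with edgeR 4.0.16 (quasi-likelihood, robust) in R 4.3.3, with an adjusted p threshold of 0.05. CPM are counts scaled to library size after TMM, and SE is the log2 fold change divided by the square root of F. Shares are of summed FPKM, and their tests are exact permutations of libraries, two-sided.

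Alternatives were DESeq2 1.42.0, limma 3.58.1 (voom, and log2(FPKM + 1) or log2(FPKM + 0.1)), other scalings and filters, a replicate block and leaving out libraries. On simulated counts for this comparison, 192 of 199 changed genes of 14324 were recovered, with 13 false calls. Far fewer genes changed there than the 54.6% called in the data. The simulation therefore does not measure scaling or error rates under so broad a difference. Coordinates and exon and promoter sequences come from GENCODE and RefSeq annotation of GRCm38, not from the GRCm39 build of the table, and transcripts were matched by RefSeq ID. Genes that overlap Postn, Tnc, Thbs3 and Vcan in that annotation have no row in the table. Of each related list, up to 2 genes that rose and 2 that fell most were named, among those called, not overlapping and at 1 CPM or more, and of cell type lists only genes among the 2 most abundant. The 10 genes and all lists were chosen with earlier results of these data known. The labels do not say that libraries came from separate animals, so p-values measure the spread between libraries, which may be technical.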

Additional observations from a re-analysis of the deposited data

How the results depend on the processing

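No alternative reversed a direction. For single genes, 160 results kept their side of the threshold, 16 lost their call and 4 gained one. Of the 16, replicates 1 and 3 only accounts for 1 per called gene, with adjusted p values of 0.0649 (Vcan) to 0.251 (Thbs4), and the others are those given above for Thbs4 and Sparc. The 4 gains are Thbs3 with total counts (log2 fold change 0.37) and with the FPKM fits (0.37 to 0.39).

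With replicates 1 and 3 only, 0 of the 9 called genes, 0 of the 4 past 2-fold (4 at an unadjusted p), 0 of the 52 called genes of the related lists (36 unadjusted) and 0 of the 11 transcripts (9 unadjusted) passed. Fewer libraries enter that fit, whose lowest adjusted p over all genes was 0.0542. The count past 2-fold was 7 with total counts and with each FPKM fit, and 3 to 7 with 1 library left out, the 7 being without WT replicate 3. Total counts moved the share of higher genes among all calls from 49.5% to 78.4%. For transcripts, 5 passed with no filter, 0 with the replicate block and 0 to 18 with 1 library left out. In place of the 18 transcripts with separate shares, diffSpliceDGE, a test chosen after seeing the data, called 1 transcript, which is not among the 18. With estimated counts in place of FPKM the Thbs4 share differed by -16 points, and with 1 library left out by -14.1 to -10.7. The causes were not tested.

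No pairing of the samples by replicate number was seen: the correlations of same-numbered deviations were 0.0101, -0.0557 and -0.00566. For 1 WT library the best correlated Gpr174-/Y library had its own number. With 3 libraries per group these values cannot exclude pairing. With the number as a block, 9 of the 10 genes passed. Libraries of a group differed beyond counting error, with chi-square per degree of freedom of 2.68 to 126. Group size limits precision more than depth, as the 10 genes had 1048 to 118480 counts per library.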
